A study of Homo sapiens with 6 samples.

Results

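The genes described here are the cadherins and protocadherins of the autosomes, in 6mA-IP-seq peak lists of MDA-MB-453 cells. Members were the protein-coding genes on chromosomes 1 to 22 whose symbol begins with CDH or PCDH followed by a number, or with PCDHA, PCDHB or PCDHG. There were 86 of them among 19229 autosomal protein-coding genes. Of the members, 53 lie in the 3 protocadherin clusters on chromosome 5 (15 PCDHA, 16 PCDHB and 22 PCDHG genes), where neighbouring genes share sequence, so each cluster was counted as 1 locus. With the 33 members outside the clusters this gave 36 loci. A peak was counted at a locus if it overlapped the gene body or the 5 kb on either side, and these windows covered 11.2 Mb. The rule for members used gene symbols and no measured value, though earlier results of these data were known when it was set.

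N6-methyladenine (6mA) is adenine that carries a methyl group on its amino nitrogen. In 6mA-IP-seq, fragments of genomic DNA are pulled down with a 6mA antibody and sequenced, and a peak is a stretch where fragments pile up above the local background. MDA-MB-453 is an established human breast cancer cell line. The cells received a scramble siRNA (Control) or an siRNA against N6AMT1 (si-N6AMT1), whose product the study examined as the enzyme that writes 6mA. Both siRNAs were used at 10 nM, and the DNA was taken after 48 h. Each group had 2 immunoprecipitated libraries, called biological replicates, and 1 input. Only the 4 peak lists of the immunoprecipitated libraries were analysed here, so neither the strength of the knockdown nor the expression of the cadherins was measured. All groups were of 1 cell line and 1 transfection time. A peak list also cannot tell apart more modified copies of a sequence and more copies of that sequence in the cells.

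Cadherins are transmembrane adhesion proteins whose extracellular repeats bind calcium and pair with cadherins of the neighbouring cell. Type I classical cadherins, with E-cadherin (CDH1) of epithelia as the best known, bind catenins inside the cell, which link them to actin. Type II cadherins are close relatives that are used widely in the nervous system and in mesenchymal and vascular cells. Protocadherins are a larger branch, and the clustered ones give single neurons a cell surface identity. Loss of E-cadherin and gain of N-cadherin (CDH2) accompany the change of epithelial tumor cells to a mesenchymal state.

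The sequence under the peaks is shown first, because repeated words and long tracts recurred under strong peaks of different members. Regions are overlapping peaks of the 4 libraries merged together. The sequences below are 160 bases around the summit, the position of highest pileup, of regions that were called in all 4 libraries. They are given on the plus strand of GRCh37, the build that hg19 corresponds to, and each lies in the named intron of the gene, with introns numbered along its canonical transcript. Capitals mark the longest unbroken run of purines or of pyrimidines where it has 15 bases or more, and otherwise every copy of the most frequent word of 4 letters.
CDH4 intron 2, chr20:60019798-60019957: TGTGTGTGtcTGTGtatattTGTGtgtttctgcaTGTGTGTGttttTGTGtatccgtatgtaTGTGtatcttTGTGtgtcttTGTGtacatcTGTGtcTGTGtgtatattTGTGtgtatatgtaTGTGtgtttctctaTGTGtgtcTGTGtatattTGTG
CDH4 intron 4, chr20:60365332-60365491: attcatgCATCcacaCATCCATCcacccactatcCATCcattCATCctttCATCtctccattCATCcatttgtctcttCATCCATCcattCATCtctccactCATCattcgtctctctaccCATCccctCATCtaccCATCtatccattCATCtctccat
CDH22 intron 4, chr20:44846214-44846373: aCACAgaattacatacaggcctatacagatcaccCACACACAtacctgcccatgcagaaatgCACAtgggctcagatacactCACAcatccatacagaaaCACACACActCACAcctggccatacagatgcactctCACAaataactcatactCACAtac
CDH18 intron 3, chr5:19811209-19811368: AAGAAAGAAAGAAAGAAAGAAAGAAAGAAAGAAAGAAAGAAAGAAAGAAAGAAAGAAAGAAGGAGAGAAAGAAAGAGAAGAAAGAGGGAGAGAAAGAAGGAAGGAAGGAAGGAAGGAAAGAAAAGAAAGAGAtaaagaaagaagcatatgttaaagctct
PCDH15 intron 3, chr10:56195850-56196009: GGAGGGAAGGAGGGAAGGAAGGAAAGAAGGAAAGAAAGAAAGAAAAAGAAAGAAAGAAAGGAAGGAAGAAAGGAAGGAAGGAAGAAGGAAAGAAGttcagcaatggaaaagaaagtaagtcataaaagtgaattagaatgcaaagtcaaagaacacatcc
CDH12 intron 1, chr5:22654103-22654262: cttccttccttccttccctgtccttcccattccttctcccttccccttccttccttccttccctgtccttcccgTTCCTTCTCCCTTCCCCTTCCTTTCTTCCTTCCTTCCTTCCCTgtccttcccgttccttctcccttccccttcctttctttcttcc
CDH1 intron 2, chr16:68791577-68791736: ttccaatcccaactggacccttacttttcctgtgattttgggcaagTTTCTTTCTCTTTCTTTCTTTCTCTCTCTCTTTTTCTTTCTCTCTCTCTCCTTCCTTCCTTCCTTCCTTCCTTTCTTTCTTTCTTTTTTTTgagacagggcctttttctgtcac
CDH9 intron 2, chr5:26924050-26924209: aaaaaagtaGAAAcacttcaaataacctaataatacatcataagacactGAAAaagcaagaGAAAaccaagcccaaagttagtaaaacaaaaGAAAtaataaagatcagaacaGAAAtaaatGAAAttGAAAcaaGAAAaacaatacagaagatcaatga

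CDH4, CDH22 and CDH9 had no long purine or pyrimidine tract in these sequences. The first CDH4 sequence held 17 copies of TGTG, the next held 15 copies of CATC, and the CDH22 sequence held 10 copies of CACA. CDH18, PCDH15, CDH12 and CDH1 instead carried purine or pyrimidine tracts of 132, 95, 43 and 91 bases. In CDH9 the longest tract had 9 bases and the most frequent word, GAAA, occurred 8 times. The share of bases equal to the base a fixed number of positions further on, at the best shift of 1 to 30, was 69.7% and 57.4% in the CDH4 sequences, 44.2% in CDH22 and 46.0% in CDH9, so that CDH22 and CDH9 did not stand apart as repeats by this measure.

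The regions that were called in 1 group alone also held tracts and repeated words. Control-only regions of PCDH9 and CDH8 and si-N6AMT1-only regions of CDH26 and PCDH9, all among the 3 highest ranks of their class, are shown so that the groups can be compared. Rank was set by −log10 q, the significance of a peak, as its percentile within each list, with the lowest percentile of the calling libraries taken.
PCDH9, Control, chr13:67339082-67339241: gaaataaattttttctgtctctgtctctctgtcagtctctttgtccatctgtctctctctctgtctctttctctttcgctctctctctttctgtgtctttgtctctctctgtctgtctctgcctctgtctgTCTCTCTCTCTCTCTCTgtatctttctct
CDH8, Control, chr16:62024797-62024956: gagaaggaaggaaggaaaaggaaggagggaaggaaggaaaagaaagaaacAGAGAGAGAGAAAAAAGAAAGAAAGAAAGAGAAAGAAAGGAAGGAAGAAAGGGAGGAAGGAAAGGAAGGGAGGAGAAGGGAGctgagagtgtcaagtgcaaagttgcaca
CDH26, si-N6AMT1, chr20:58593761-58593920: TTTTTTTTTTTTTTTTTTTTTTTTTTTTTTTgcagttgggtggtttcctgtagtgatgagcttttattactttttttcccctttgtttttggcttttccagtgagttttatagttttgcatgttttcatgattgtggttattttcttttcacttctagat
PCDH9, si-N6AMT1, chr13:66872734-66872893: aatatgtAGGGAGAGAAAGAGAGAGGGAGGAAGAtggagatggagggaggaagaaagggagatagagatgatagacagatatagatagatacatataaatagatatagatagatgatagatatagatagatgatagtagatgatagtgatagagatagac

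The Control-only sequence of PCDH9 was made of CTCT words, of which it had 18, and that of CDH8 held a purine tract of 82 bases. Among the si-N6AMT1-only sequences, CDH26 held a run of 31 T and PCDH9 a purine tract of 27 bases beside 15 copies of AGAT. No repeat annotation was used.

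Across all summits of the members, long tracts were many times more frequent than in the members' own sequence. In windows of 100 bases around the summit, a purine or pyrimidine tract of at least 20 bases was present in 31.0% and 32.4% of member peaks in the Control libraries. The shares were 31.7% and 37.6% in the si-N6AMT1 libraries. Consecutive windows of 100 bases across the members' sequence held such a tract in 1.94%. Summits elsewhere on the autosomes held one in 29.3% to 34.5%, so the share over all members lay close to that of peaks in general. Without CDH4 the member shares were 36.5% and 38.4% in Control versus 38.0% and 43.2% in si-N6AMT1. Other autosomal summits had 32.1% and 29.3% against 34.5% and 32.2%, lower in each library. The self-match of a window, chosen as a measure after the sequences were seen, is that same share of bases at the best shift of 1 to 30. It reached 60% or more at 35.7% and 38.9% of member summits in Control versus 32.2% and 38.1% in si-N6AMT1, against 0.967% of the members' consecutive windows. At other autosomal summits the share was 30.8% and 27.3% in Control versus 27.5% and 25.6% in si-N6AMT1, lower in each library. The members' excess rested on CDH4, for without it the member shares were 29.2% and 33.1% in Control versus 26% and 29.6% in si-N6AMT1, above the other summits in 2 of 4 libraries. Runs of at least 8 A or 8 T were found at 19.3% to 26.4% of member summits and in 5.34% of consecutive windows. Other autosomal summits had such a run in 23.5% to 27.5%, a higher share than the members in each library. Without CDH4 the member shares were 23.4% and 27.8% in Control versus 28% and 30.9% in si-N6AMT1. These lay above the other summits in every library except Control replicate 1. A CA or TG repeat of at least 6 units occurred at 6.09% to 9.73% of member summits, against 4.67% to 6.55% of other autosomal summits and 0.645% of consecutive windows. Median GC content was 36% to 38% at member summits and 37% in consecutive windows, a small difference beside those in repeats. Without CDH4 the member summits had 34% to 35.5%. Taken over regions, CDH4 had 46% against 53% in its own consecutive windows. CDH12, CDH22 and CDH18 regions were also lower than their own windows, while CDH9 and PCDH15 regions were higher.

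**Figure D1:**
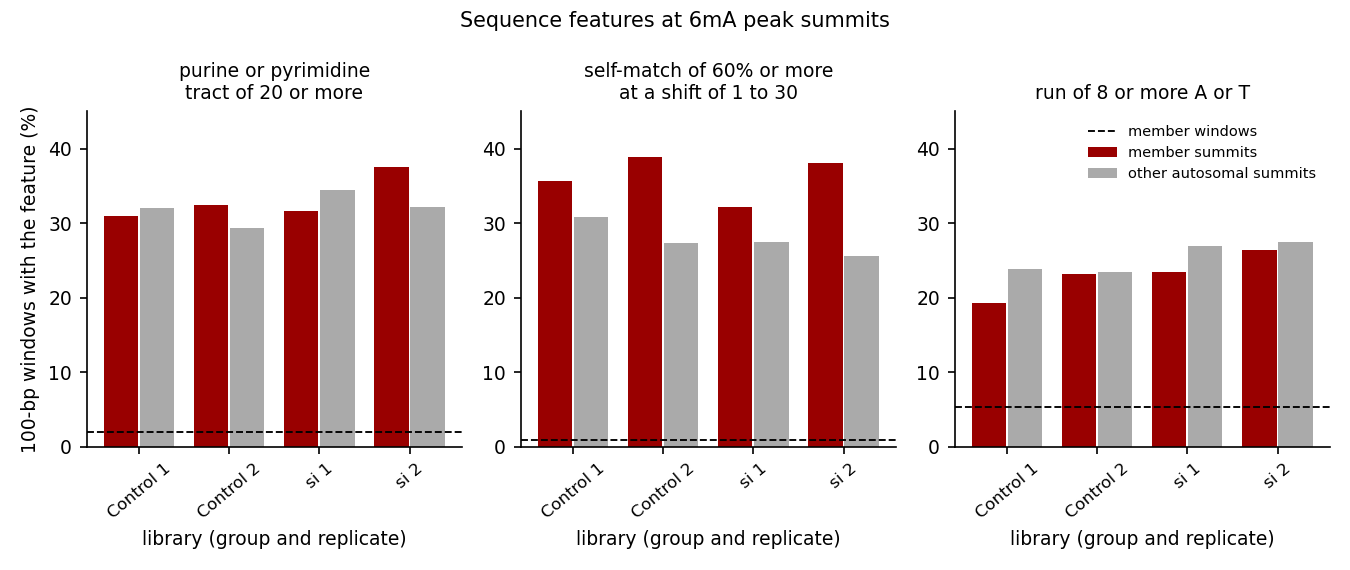
Bars give the share of 100-base windows (%) with a purine or pyrimidine tract of at least 20 bases, with a self-match of at least 60% at a shift of 1 to 30 bases, and with a run of at least 8 A or 8 T, at member summits (red) and other autosomal summits (grey) in each library. The dashed line is the share in consecutive windows of the members' own sequence, 1.94%, 0.967% and 5.34%. All bars stand far above it in both groups.

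The repeats differed among members. Of 38 CDH4 regions, 10.5% had a long purine or pyrimidine tract, whereas 68.4% reached the 60% self-match, which 3.49% of consecutive windows in the CDH4 gene did. In CDH12 the order was the other way around, with a long tract at 55.6% of 45 regions and the self-match at 24.4%. CDH18, with 67 regions, had tracts at 29.9% and the self-match at 16.4%. For CDH13 the shares were 54.5% and 63.6% of 11 regions. The self-match was present at 53.8% of the 93 member regions called in all 4 libraries and at 20.6% of the 155 called in 1 library. The tract did not separate these classes in the same way, with 31.2% and 34.8%. Without CDH4, the self-match was at 42.9% of 63 regions called in all 4 libraries and at 19.7% of 152 called in 1, and the tract at 44.4% and 34.9%. The word CAGGCTGG, searched on both strands, was found at 2.92% to 5.46% of member summits, 2.69% to 3.99% of other autosomal summits and 2.69% of the members' consecutive windows. It was present in 17 member regions, of which 1, in CDH18, was called in all 4 libraries.

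The group means of member peaks differed by less than the replicates of a group did. The windows of all members held 171 and 185 peaks in the Control libraries versus 183 and 197 in the si-N6AMT1 libraries. The groups overlapped, since Control replicate 2 lay above si-N6AMT1 replicate 1. The means were 178 ± 9.90 and 190 ± 9.90 (SD, n = 2 libraries), a difference of 12 peaks or 6.74% (exact two-sided permutation test, p = 0.667). It was 5 without Control replicate 1 or without si-N6AMT1 replicate 2, and 19 without Control replicate 2 or without si-N6AMT1 replicate 1. With 2 libraries against 2, the smallest p this test can give is 0.333. The number of loci with a peak was 21 and 22 in Control versus 22 and 23 in si-N6AMT1, a difference of 1 between the means (exact permutation test, p = 0.667).

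The si-N6AMT1 lists were longer over the autosomes as a whole, with 37563 and 39451 peaks against 29495 and 32295 in Control. Their depth was also higher, as far as it can be read from the lists, since reads were not counted here. The lowest background in a list, which rises with the number of fragments, placed Control replicate 2 and si-N6AMT1 replicates 1 and 2 at 1.30, 1.35 and 1.46 times the depth of Control replicate 1. Member peaks made up 0.580% and 0.573% of the autosomal peaks in Control versus 0.487% and 0.499% in si-N6AMT1. Per Mb of window, the members held 15.3 and 16.5 peaks in Control versus 16.3 and 17.6 in si-N6AMT1. Windows of the other autosomal protein-coding genes held 10.4 and 11.3 peaks per Mb in Control versus 13.4 and 13.8 in si-N6AMT1. The density at other genes was thus 24.9% higher in si-N6AMT1 by the means, while that at members was 6.74% higher.

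The ratio of both densities, in which the length of a list enters both parts, was 1.46 in both Control libraries versus 1.22 and 1.27 in the si-N6AMT1 libraries. Its mean was 1.46 ± 0.00488 in Control and 1.25 ± 0.0349 in si-N6AMT1 (SD, n = 2), a difference of −0.213. The groups did not overlap, and the exact permutation test gave p = 0.333, the smallest it can give, so this difference did not pass a threshold of 0.05 and could not have. When every library kept only its most significant peaks, as many as the shortest list holds, members kept 171 and 176 peaks in Control versus 158 and 161 in si-N6AMT1. The difference in member peaks then turned to −14, and the ratio was 1.46 and 1.52 against 1.36 and 1.39 (exact permutation test, p = 0.333 for each). Depth, as read from the lowest background, moved with the groups, and its part in these differences was not tested.

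**Figure D2:**
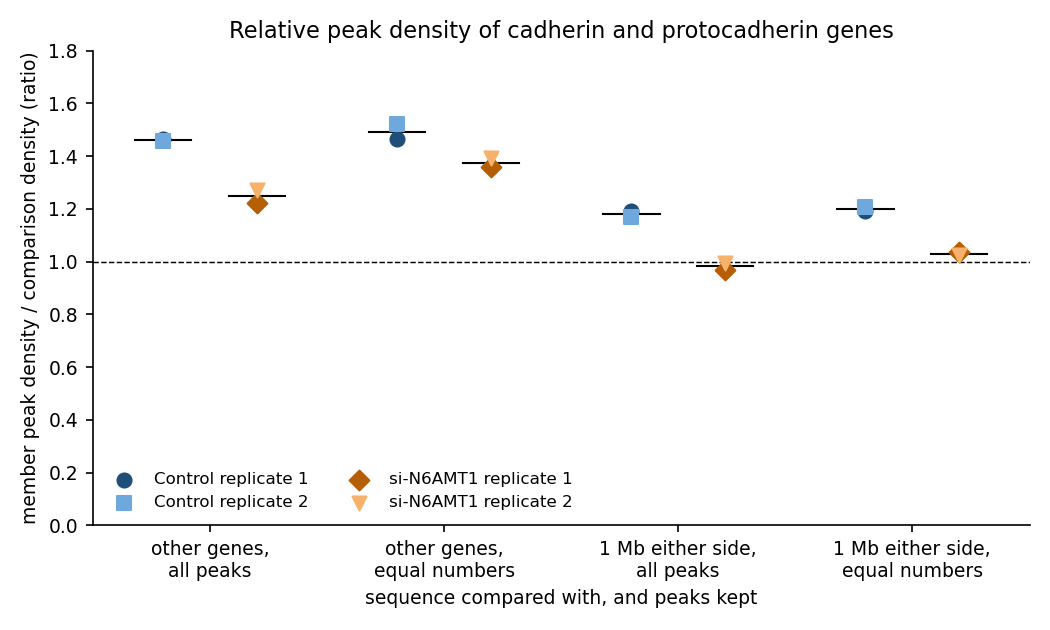
Points give, for each library, the peak density of the members divided by that of the sequence named on the x axis, and bars give the mean of each group. The Control libraries lie above the si-N6AMT1 libraries in each of the 4 comparisons. Beside the 1 Mb on either side, pooled over the members, the si-N6AMT1 ratios come close to the dashed line at 1.

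Over the 4 libraries the members' density was 1.35 ± 0.124 (SD, n = 4) times that of other genes, above 1 in 4 of 4 libraries (exact two-sided sign-flip permutation test, p = 0.125, the smallest with 4 libraries). This rested on the longest members. Without the members over 500 kb (CDH18, CDH4, PCDH15, CDH12, PCDH9 and CDH13) the ratio was 0.864. It was 1.12 without the members on chromosome 20 and 1.15 without those on chromosome 5, which were left out after the data were seen. Compared with the 1 Mb on either side of each member, pooled, the members' density was 1.19 and 1.17 times as high in Control versus 0.970 and 0.995 times as high in si-N6AMT1. The density of this surrounding sequence was itself 1.23 to 1.28 times that of other genes in the 4 libraries.

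The peaks were concentrated in a few long genes. CDH18, CDH4, PCDH15, CDH12, CDH9 and PCDH9 together held 77.2% of member peaks on 53.1% of the length. Of the 36 loci, 25 had a peak in at least 1 library and 20 had one in all 4. Outside the clusters, 22 of 33 genes, or 66.7%, had a peak in at least 1 library, against 55.3% of all autosomal protein-coding genes. In all 4 libraries it was 18 of 33, or 54.5%, against 24.4%. These members are long genes, with a median gene body of 135 kb against 27.6 kb for all genes. Among genes over 100 kb, 13 of 18 members (72.2%) had a peak in all 4 libraries, against 66.3% of all such genes. For a peak in at least 1 library the order was the other way around. It was 15 of the 18 members (83.3%), against 93.8% of the other genes over 100 kb. The median density of these 18 members was 8.74 peaks per Mb, below the 10.4 of the other genes over 100 kb.

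**Figure D3:**
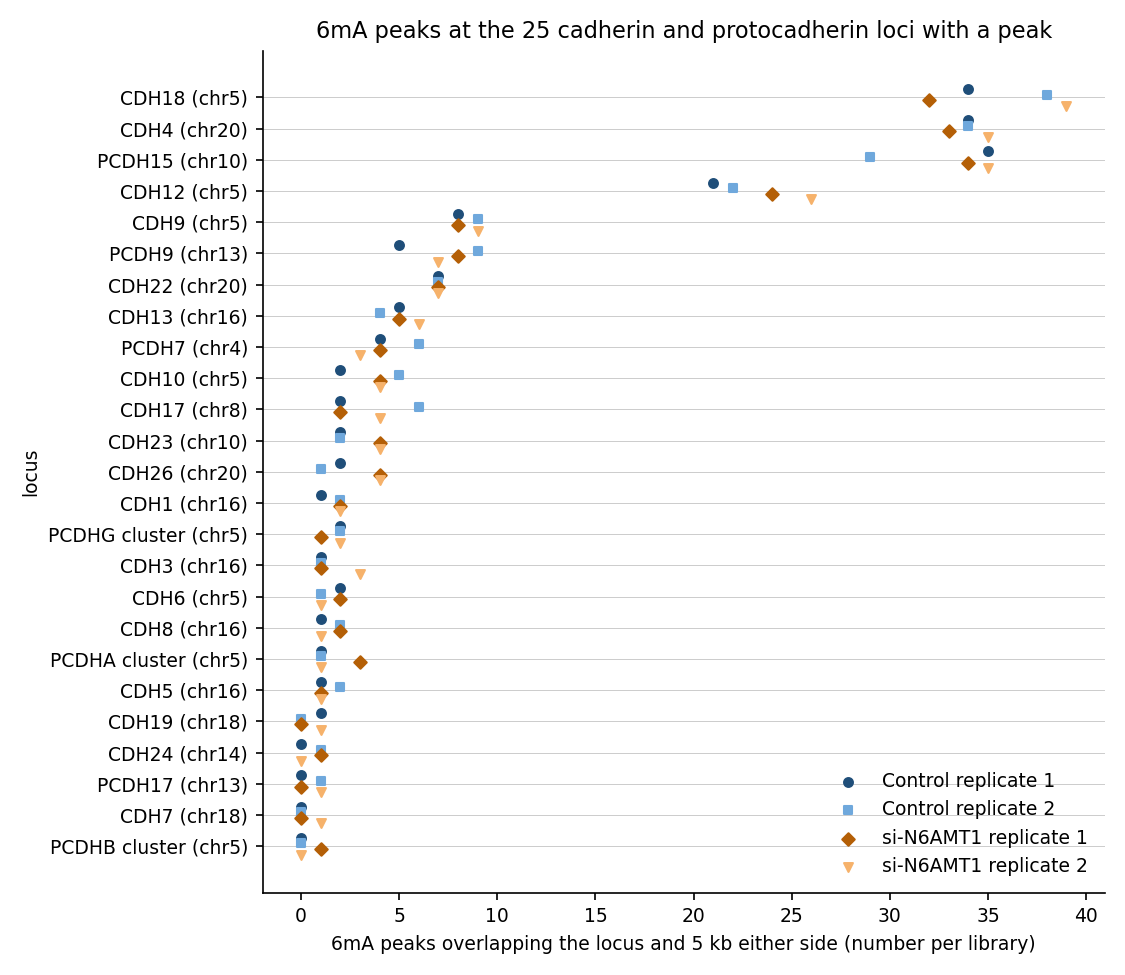
Each symbol is the number of peaks at a locus in 1 library, for the 25 loci with a peak, ordered by the mean, with the chromosome in brackets. CDH18, CDH4, PCDH15 and CDH12 each have more than 20 peaks in every library, no other locus reaches 10, and the groups overlap at all loci except CDH12, CDH23 and CDH26.

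Among the type I classical cadherins, CDH4 (R-cadherin, first described in the retina) stood far above the others. It had 34 peaks in each Control library and 33 and 35 in the si-N6AMT1 libraries, or 48.7 per Mb. That density ranked 53 among 3506 autosomal genes over 100 kb, and its number of peaks ranked 6. CDH1 had 1 and 2 peaks in Control and 2 in each si-N6AMT1 library, with 1 of its 4 regions called in all 4 libraries. CDH3 (P-cadherin) lies next to CDH1 and had 1 peak in each Control library and 1 and 3 in si-N6AMT1. CDH2 (N-cadherin), at 245 kb a longer gene than CDH1, and CDH15 (M-cadherin of muscle) had no peak in any library. The sequence within 1 Mb of CDH2 was also poor in peaks, at 1.5 per Mb. The group counts of CDH4, CDH1 and CDH3 overlapped.

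The type II cadherins were unequal in the same way. CDH18 had 34 and 38 peaks in Control versus 32 and 39 in si-N6AMT1, the highest mean number of any member, at 32.1 per Mb. CDH12 had 21 and 22 peaks in Control versus 24 and 26 in si-N6AMT1, so that both si-N6AMT1 libraries lay above both Control libraries. CDH9 had 8 and 9 peaks in each group, at 33.9 per Mb. CDH10 had 2 and 5 peaks in Control and 4 in each si-N6AMT1 library. These genes, which are expressed mainly in the nervous system, lie along the short arm of chromosome 5. CDH22, a type II cadherin on chromosome 20, had exactly 7 peaks in each of the 4 libraries, at 48.4 per Mb. CDH6 and CDH8 had 1 or 2 peaks in each library.

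CDH5 (VE-cadherin, of the junctions between endothelial cells) had 1 and 2 peaks in Control and 1 in each si-N6AMT1 library. All fell in 1 region, and as the gene is 38.1 kb long its density was 26 per Mb, while the sequence around it had 7.71 per Mb. CDH24 had 1 peak in Control replicate 2 and 1 in si-N6AMT1 replicate 1. CDH19 had 1 peak in a library of each group, and CDH7 had 1 in si-N6AMT1 replicate 2. No peak was found at CDH11 (OB-cadherin, of mesenchymal cells), which is 182 kb long, or at CDH20.

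Among the more distant cadherins, CDH23, which forms the tip links of inner ear hair cells together with PCDH15, had 2 peaks in each Control library and 4 in each si-N6AMT1 library. CDH26 had 2 and 1 peaks in Control and 4 in each si-N6AMT1 library. CDH17 (liver-intestine cadherin) had 2 and 6 peaks in Control versus 2 and 4 in si-N6AMT1, at 35.0 per Mb. CDH13 (T-cadherin, which is held in the membrane by a lipid anchor and has no cytoplasmic tail) had 5 and 4 peaks in Control versus 5 and 6 in si-N6AMT1. Its gene is 1174 kb long, so this was only 4.22 per Mb, against 18.6 in the surrounding sequence. CDH16 (of the kidney) had no peak.

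Among the non-clustered protocadherins, PCDH15 had 35 and 29 peaks in Control versus 34 and 35 in si-N6AMT1, at 18.1 per Mb. PCDH9 had 5 and 9 peaks in Control versus 8 and 7 in si-N6AMT1, and PCDH7 had 4 and 6 against 4 and 3. PCDH17 had 1 peak in a library of each group. PCDH1, PCDH8, PCDH10, PCDH12, PCDH18 and PCDH20 had none, and all 6 are short, with bodies from 5.75 to 59.3 kb. The clusters were poor in peaks for their length. The PCDHA cluster had 1 peak in each Control library and 3 and 1 in si-N6AMT1, the PCDHG cluster had 2 and 2 against 1 and 2, and the PCDHB cluster had 1 peak in si-N6AMT1 replicate 1 alone. At 6.35, 9.09 and 1.60 per Mb they lay below the surrounding sequence, which had 17.8 to 18.9 per Mb.

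Over the loci, 3 (CDH12, CDH23 and CDH26) had more peaks in both si-N6AMT1 than in both Control libraries and 0 had fewer. As a share of the 33 genes outside the clusters these were 9.09% and 0%. Over all autosomal protein-coding genes, 7.16% had more and 1.68% had fewer, near the members' shares. Among genes over 100 kb, 2 of 18 members (11.1%) had more and 0% had fewer. Of the other genes of that length, 17.4% had more and 3.38% had fewer, so the members' shares lay below both, on few genes.

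Density varied with the chromosomal surroundings. The 3 members on chromosome 20 held 23.8% of member peaks on 8.29% of the length, at 47.1 per Mb, with 26.3 in the 1 Mb on either side. On chromosome 5, members held 41.4% of the peaks on 30.8% of the length, and their 22.1 per Mb lay just below the 24.5 of the surroundings. Chromosome 10 members had 16 per Mb against 12.9 around them, chromosome 16 members had 5.27 against 10.8, and chromosome 13 members had 7.20 against 14.6. The 4 members on chromosome 18, which include CDH2, had 1.00 per Mb in surroundings with 1.74. If each locus had the density of its chromosome, the members would hold 135.8 peaks. If each had that of its own surroundings they would hold 204.6, whereas the observed mean was 184, or 0.899 times as many. The pooled ratio to the surroundings had a mean of 1.08, so the comparisons fall on opposite sides of 1. Pooling takes up to 1 Mb on either side of every locus whatever its length, while the count of 204.6 weights each locus by its length. Across the 36 loci, density ranked with that of the surrounding sequence (Spearman's rho 0.653) more closely than with GC content (rho −0.0405). Over the 25 loci with windows above 100 kb, rho was 0.725 and 0.0885. Loci on 1 chromosome share their surroundings in part, and the short loci rest on few peaks, so these are descriptions.

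**Figure D4:**
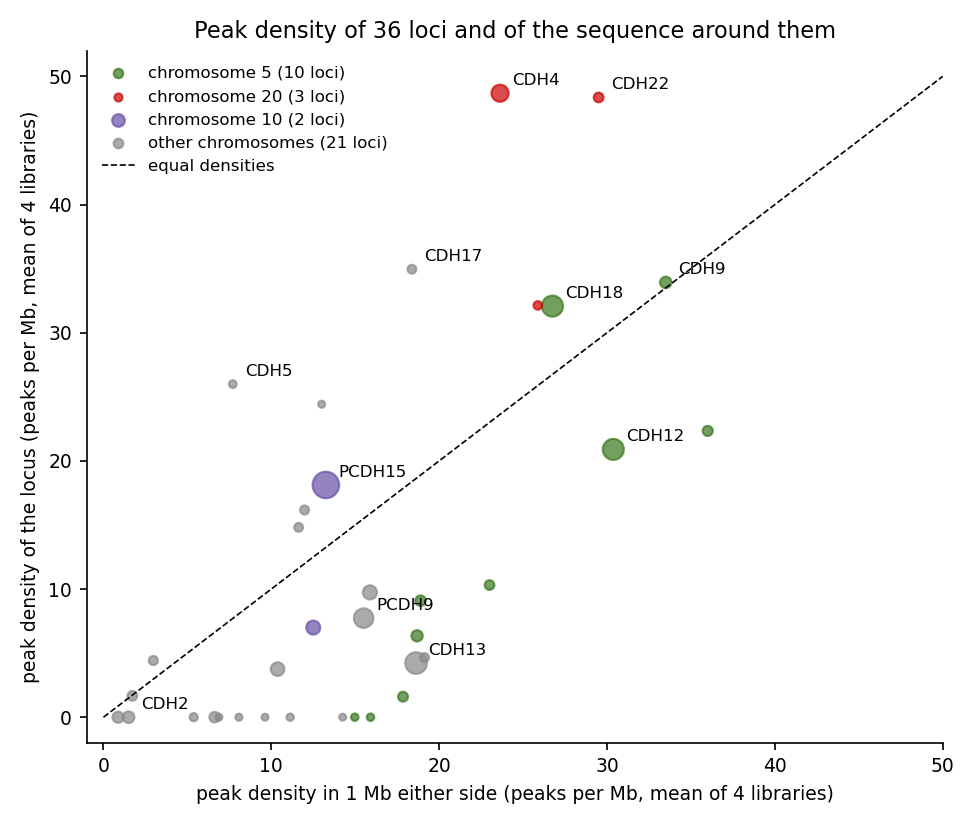
Each point is 1 of 36 loci, with the mean peak density of the 4 libraries in the 1 Mb on either side on the x axis and that of the locus on the y axis (both peaks per Mb), coloured by chromosome, with a larger point for a longer locus. CDH4 and CDH22 lie well above the dashed line of equal densities, CDH18 and CDH9 lie close to it, and CDH12, CDH13 and PCDH9 lie below it.

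The local background at the peaks also differed by chromosome and by group, with si-N6AMT1 higher on chromosome 20 and lower on chromosomes 5 and 10. In multiples of the lowest background in the list, the median background at CDH18 peaks was 2.03 and 1.99 in Control versus 1.84 and 1.89 in si-N6AMT1. At CDH4 peaks it was 1.11 in both Control libraries versus 1.34 and 1.45 in the si-N6AMT1 libraries. At CDH22 peaks it was 1.15 and 1.11 in Control versus 1.75 and 1.98 in si-N6AMT1. At PCDH15 peaks it was 1.23 and 1.25 against 1.16 and 1.13. Over all autosomal peaks it was 1.23 and 1.25 in Control versus 1.20 and 1.19 in si-N6AMT1. Fold enrichment is taken over this background, and the part of the background in the folds and counts was not tested. The difference in median fold of member peaks, si-N6AMT1 minus Control, was −0.622 for all members. It was −0.603 without the chromosome 20 members and −0.813 without those on chromosome 5, both left out after the data were seen.

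Many member regions were shared by all libraries. The peaks merged into 333 member regions among 69942 on the autosomes. Of the member regions, 93 (27.9%) were called in all 4 libraries, against 16.9% of all autosomal regions. Only 10 (3.0%) were called in both Control and neither si-N6AMT1 library, against 2.63%. Another 13 (3.90%) were called in both si-N6AMT1 and neither Control library, against 5.85%. A further 155 (46.5%) were called in 1 library, against 49.4%. With equal numbers of peaks, 12 of 304 member regions (3.95%) were Control-only, against 4.18% of all autosomal regions, and 9 (2.96%) were si-N6AMT1-only, against 4.17%.

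CDH4 accounted for much of the shared class. In CDH4, 30 of 38 regions (78.9%) were called in all 4 libraries, and in CDH22 it was 6 of 9 (66.7%). The shares were 23.9% of 67 regions in CDH18, 23% of 61 in PCDH15 and 24.4% of 45 in CDH12. PCDH9 had 18 regions and none of them was called in all 4 libraries, although its count was similar in both groups. The chromosome 20 members held 52 of the 333 member regions. When they were left out, the regions called in all 4 libraries fell from 93 to 56. Without CDH4 alone, 63 of 295 member regions were called in all 4 libraries, where the share over all autosomal regions was 16.9%.

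Along the genes, peaks lay mostly in introns, which also make up most of the sequence. Summits of member peaks were intronic in 87.3% to 88.9% of cases, and 85.3% of the members' sequence was intron. At other genes, 83.2% to 83.6% of summits and 79.6% of the sequence were intronic. Within 1000 bp of a transcript start lay 1.75% to 3.24% of member summits and 3.26% to 3.87% of those at other genes. Such positions made up 3.20% of the members' sequence and 4.93% of that at other genes. Of the regions, 293 were intronic, 31 intergenic, 7 within 1000 bp of the start of any protein-coding or long noncoding transcript and 2 exonic. Of these 7, the 3 called in all 4 libraries, in the windows of CDH4, CDH12 and CDH22, lay by starts of transcripts other than those of the member itself. In CDH4, 29 of 38 regions lay in intron 2, which is 489 kb of a window of 698 kb. Of these 29, 23 were called in all 4 libraries. In CDH12, 14 of 45 regions lay in intron 1, which is 348 kb of a window of 1113 kb. CDH18 had 13 regions in intron 3, of 91.5 kb, with 5 called in all 4, and 30 regions in the part of its window upstream of the canonical transcript. The median distance between neighbouring summits was 13.3 kb in CDH4, 9.99 kb in CDH18, 20.2 kb in PCDH15, 18.2 kb in CDH12 and 84.0 kb in CDH13.

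**Figure D5:**
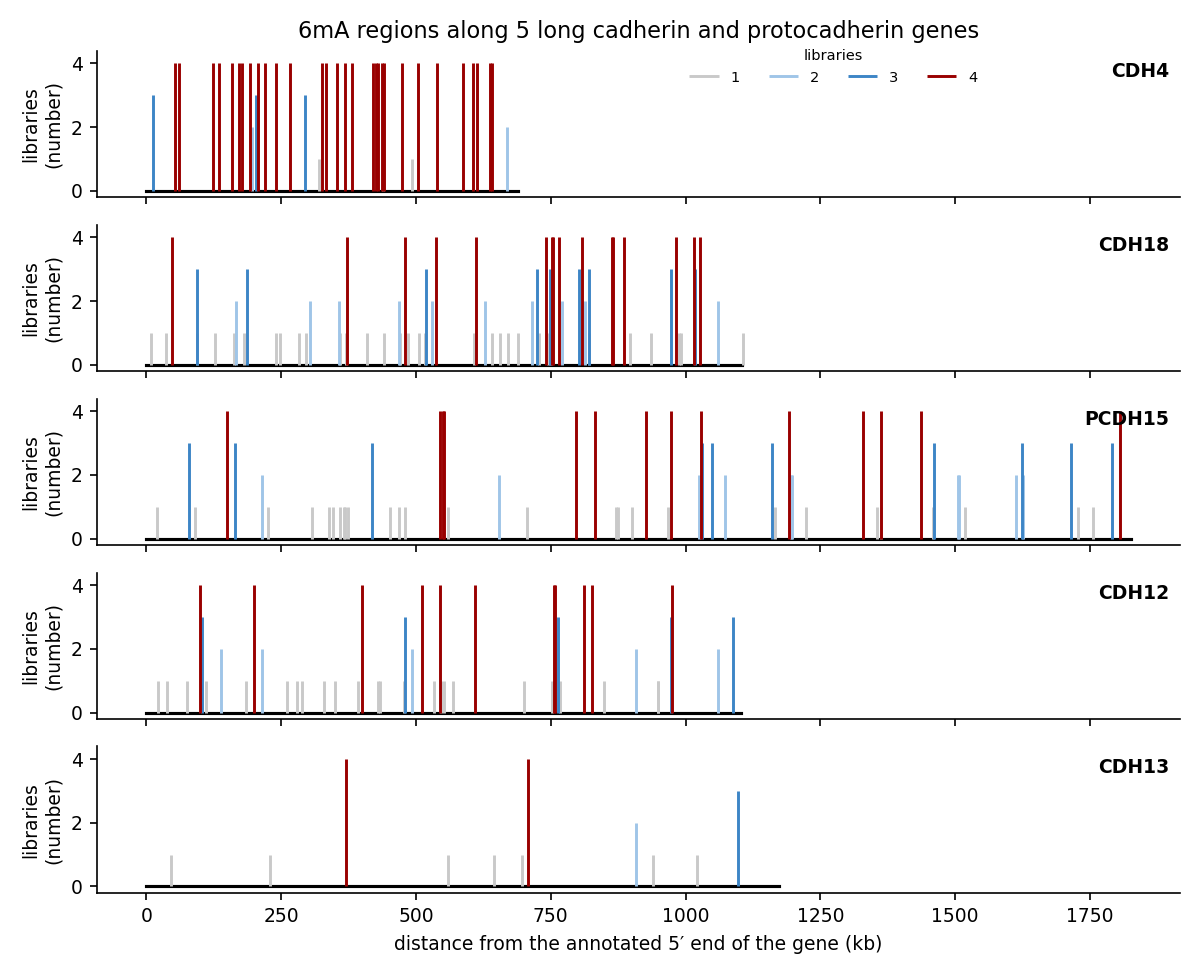
Each vertical line is a region, placed by the distance of its summit from the annotated 5′ end of the gene (x axis, kb), and its height and colour give the number of libraries that called it. The horizontal line is the gene body. Regions called in all 4 libraries (dark red) fill CDH4, whereas CDH18, PCDH15 and CDH12 mix them with many regions of 1 library and CDH13 has 2.

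By the rank of −log10 q, the first shared region lay in intron 2 of CDH4, at chr20:60018649-60020221. Its fold enrichment, the pileup over the local background, was 19.6 and 14.6 in Control versus 16.1 and 14.7 in si-N6AMT1. Its pileup was 44 and 35 fragments in Control versus 57 and 58 in si-N6AMT1, with a local background of 1.29 and 1.46 against 2.61 and 3.02. So pileup and background were both higher in si-N6AMT1, while the fold overlapped between groups. The regions in intron 4 of CDH4, at chr20:60365023-60366155 and chr20:60413815-60415115, had folds of 17.8, 12.9, 13.6 and 11.4 and of 18.3, 13.3, 16.7 and 13.5, in the order Control replicates 1 and 2 and si-N6AMT1 replicates 1 and 2. In CDH22, the region in intron 4 at chr20:44845747-44846731 had folds of 14.4 and 13.1 in Control versus 13.1 and 13.0 in si-N6AMT1.

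The regions called in 1 group had lower folds than these top-ranked shared ones. Over all 93 shared member regions the median fold was 10.3 and 9.09 in Control versus 9.40 and 8.78 in si-N6AMT1. The regions of 1 group described next rank highest in their class, so their folds do not stand for the class. In intron 3 of PCDH9, chr13:67338974-67339437 had folds of 10.2 and 10.5 in the Control libraries, from pileups of 20 and 24 fragments. In intron 2 of CDH8, chr16:62024677-62025057 had folds of 8.30 and 8.89. Of the regions called in si-N6AMT1 alone, that beyond the end of the canonical CDH26 transcript at chr20:58593306-58593996 had folds of 8.53 and 7.47, and that beyond the 3′ end of PCDH9 at chr13:66872560-66873069 had 7.74 and 8.88. All 4 rested on pileups of 16 to 25 fragments, where the lowest pileup of any member peak was 9 to 12 in the 4 libraries. A region with no call in a group can still hold fragments there below the threshold.

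Among the start sites of the members themselves, 1 had a region within 1000 bp that was called in more than 1 library. It lay 390 bp inside CDH24, in intron 1, at chr14:23526040-23526565, with a fold of 7.02 in Control replicate 2 and 10.8 in si-N6AMT1 replicate 1. As it was called in a library of each group, it gave no difference between them. Its sequence is shown because it was the one region near a member's own start that recurred, and it is purine-rich, with the longest tract of 21 bases in capitals.
CDH24, chr14:23526259-23526418: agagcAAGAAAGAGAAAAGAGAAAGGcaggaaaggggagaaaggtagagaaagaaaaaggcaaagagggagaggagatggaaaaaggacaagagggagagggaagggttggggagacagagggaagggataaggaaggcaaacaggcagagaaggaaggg

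Peak strength at members was slightly above that of the autosomes. The median fold of member peaks was 7.87 and 7.62 in Control versus 7.31 and 6.94 in si-N6AMT1, where all autosomal peaks had 7.41 and 6.92 against 6.92 and 6.64. Both Control libraries lay above both si-N6AMT1 libraries at the members. The means were 7.75 ± 0.181 and 7.12 ± 0.266 (SD, n = 2), a difference of −0.622 (exact permutation test, p = 0.333, the smallest possible). The difference was −0.259 with equal numbers of peaks and −0.168 without members over 500 kb. Over the 93 regions called in all libraries, the median log2 ratio of si-N6AMT1 to Control fold was −0.13, against −0.05 over the other 11732 such autosomal regions. In 30 of the 93 (32.3%) both si-N6AMT1 folds lay below both Control folds, against 24.3% of the others, and in 17 (18.3%) they lay above, against 16.9%. Taken relative to the lowest background of each list in place of the local one, the median log2 ratio was −0.12 at members and −0.15 at other regions, so that the order of members and other regions turned around.

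The catenins and the rest of the cadherin superfamily were counted in the same way. The 7 catenin genes held 40 and 60 peaks in Control versus 50 and 67 in si-N6AMT1, and 5 of them had a peak in all 4 libraries. CTNNA3 (αT-catenin) had 22 and 38 peaks in Control versus 29 and 40 in si-N6AMT1, and CTNND2 (δ-catenin of neurons) had 11 and 9 against 14 and 16. CTNNB1 (β-catenin) had 1 peak in each library. CTNND2 was the 1 catenin gene with more peaks in both si-N6AMT1 libraries, and 0 had fewer. CTNNA1, CTNNA2, CTNNA3 and CTNND2 are over 100 kb long. Of all genes of that length, 66.3% had a peak in all 4 libraries. Of those that are not members, 17.4% had more peaks in both si-N6AMT1 libraries and 3.38% had fewer. The 25 other genes of the cadherin superfamily, which include the desmosomal cadherins, the FAT and dachsous genes and the CELSR receptors, held 28 peaks in each Control library and 39 and 34 in si-N6AMT1, which was higher in both, as were the si-N6AMT1 lists as a whole, by 24.8% in the mean. Of these, 10 had a peak in all 4 libraries and 9 had none, where 24.4% of all autosomal protein-coding genes had a peak in all 4 and 55.3% had one in any library. DSC1, FAT3, DCHS1, CELSR1 and CDHR2 had more peaks in both si-N6AMT1 libraries and CDHR4 had fewer, where 7.16% and 1.68% of all autosomal protein-coding genes did. Among the other genes over 100 kb, 17.4% had more. Of the genes with more peaks, only FAT3 and CELSR1 are that long, as DSC1, DCHS1 and CDHR2 measure 33.6, 34.5 and 53.5 kb.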

How the data were processed

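The members were set by gene symbol without a measured value, but they, the lists and the measures were chosen with earlier results of these data known. The authors trimmed the reads, filtered them (Trimmomatic), mapped them to hg19 (Bowtie2 2.3.5), discarded duplicates (SAMtools 1.9) and ran MACS2 on every immunoprecipitated library by itself at a p of 1e-05. The input behind each call is not given in the sources used here. The deposited lists give a score, the fold (a ratio with 1 added to pileup and background), and −log10 p and −log10 q at each summit. Duplicate removal limits the pileup that a short repeat can reach, and reads of repeats are hard to place. These steps can move counts at repetitive summits.

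Groups came from the sample titles. The gene annotation was GENCODE v44 mapped onto GRCh37. Pileup and background were solved from fold and −log10 p, and the pileup was whole within 0.02 for 100% of peaks. Median pileups of 20 to 23 fragments at member peaks mean that single peaks rest on few fragments. Values per library were compared by exact permutation tests. The genes named were the 12 loci with most peaks, the 5 densest of those with a peak in every library, the main epithelial, vascular and mesenchymal cadherins, the clusters and the members without peaks. The remaining loci are given by their counts. Counting, merging and pileup recovery were tested on simulated data, where 100% of 2000 pileups were recovered. Computation used Python 3.11.15 with scipy 1.17.1, numpy 2.4.6, pysam 0.24.0 and pandas 2.3.3, plots used matplotlib 3.10.9, and samtools 1.23.1 indexed the genome. The study compared signal tracks, which were not used here. Regions were named if they were among the highest ranks by −log10 q of their class, and some of these regions and sequences are not reported here.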

Additional observations from a re-analysis of the deposited data

How the results depend on the processing

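The relative density of members was lower in si-N6AMT1 than in Control under every setting tried, by −0.0933 to −0.237, with no p under 0.333. When all lists were cut to the same length, the difference in member peaks turned to −14 and that in loci with a peak to −0.5. The latter was also −0.5 with a flank of 20 kb, and it was 0 once peaks with a −log10 q below 5 were dropped. Without members over 500 kb, the relative density was 0.864, regions of Control only, si-N6AMT1 only and all 4 libraries numbered 3, 4 and 20, and summits were intronic in 75.1%. Fewer members enter these counts. Intronic summits were 90.5% with no flank and 83.7% with 20 kb. Left out after the data were seen, the chromosome 20 members, with 52 of the 333 member regions, reduced the regions in all 4 libraries to 56. Without the chromosome 5 members, the Control-only, si-N6AMT1-only and shared regions were 5, 5 and 60, and intronic summits 84.7%. Leaving out 1 library gave 17 to 48 Control-only and 22 to 64 si-N6AMT1-only regions, since fewer libraries had to call each region. The difference in median fold was −0.259 with equal numbers of peaks and −0.168 without members over 500 kb, and that in member peaks was 5 to 19 when 1 library was left out. Of 120 alternative values, 4 turned direction. With the replicate block, the differences were 12 peaks, 1 locus, −0.213 in relative density and −0.622 in median fold (exact sign-flip permutation p = 0.5 for each). That p is the smallest this test can give with 2 replicates a group, so it decides nothing. Same-numbered libraries did not deviate together over the 69942 regions (correlation 0.00653), so the numbers were not taken as pairs. With 2 libraries a group, no difference between groups could pass 0.05.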
